A study of Mus musculus with 15 samples.

Results

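The 9 genes Tmem119, Cx3cr1, Selplg, Crybb1, Slc2a5, Sparc, Siglech, Olfml3 and Adgrg1, markers of homeostatic microglia, were followed through 15 lists of open chromatin peaks. A peak belonged to one of them when, of all protein-coding gene bodies within 100 kb, that gene's lay nearest to the peak's summit (mm10, RefSeq genes). This gave 1410 peaks, 60 to 122 per library, of 2395238 in all. A common map of regions, built from the 30000 best ranked peaks of every library, held 50 sites at these genes among 65410 regions. The rule is a list of gene names with no threshold on a measured value, and the list was drawn up with earlier results of these data known.

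The assay was ATAC-seq, which maps accessible DNA by where a transposase can insert adapters, and the cells were microglia taken from mouse brain without enzymes and sorted by flow cytometry. All animals were of the C57BL/6 background. The juvenile groups were WT and IRF8KO microglia at postnatal day 9 (P9, 2 and 3 libraries) and at postnatal day 14 (P14, 2 libraries each), from mice given no dye. The groups at 10 months were WT, 5xFAD cells negative for methoxy-X04 and 5xFAD cells positive for it (2 libraries each). All animals of that age, WT included, were given methoxy-X04, a dye that binds amyloid, and 5xFAD mice carry human transgenes and form plaques. Whether replicate libraries came from different animals is not in the labels, so every p-value measures a spread that may be technical.

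Microglia are the resident macrophages of the brain, and in the undisturbed brain they express a set of surface receptors and secreted proteins that sets them apart from other macrophages. IRF8, a transcription factor of myeloid cells, binds DNA together with partners of the ETS family. Among the 9 genes, Cx3cr1 encodes the receptor for the neuronal chemokine fractalkine, Adgrg1 the adhesion receptor GPR56 and Selplg a ligand of selectins. Siglech encodes a member of the family of sialic acid binding lectins. Slc2a5 encodes the fructose transporter GLUT5, Tmem119 a membrane protein used to mark microglia, Sparc and Olfml3 secreted matrix proteins, and Crybb1 a beta crystallin.

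Sequences before the start are shown for 4 genes with a site at the start, because the results set the Sparc start, which ranked lower in IRF8KO, against starts that were strong in every library. Each runs 5′ to 3′ over the 250 bases before the start (RefSeq, GRCm38.p6). Capitals mark the 21 bases centred on the summit that defined the site, where that summit fell before the start. Sparc lies on chr11:55420081-55420330, minus strand, and has no capitals because its summit fell 146 bp after the start. Cx3cr1 lies on chr9:120068297-120068546, minus strand, Siglech on chr7:55767934-55768183, plus strand, and Crybb1 on chr5:112255570-112255819, plus strand.
Sparc: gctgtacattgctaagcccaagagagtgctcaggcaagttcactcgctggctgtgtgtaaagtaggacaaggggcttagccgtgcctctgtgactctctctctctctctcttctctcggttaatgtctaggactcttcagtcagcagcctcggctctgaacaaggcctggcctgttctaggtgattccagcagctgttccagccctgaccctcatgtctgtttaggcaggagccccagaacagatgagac
Cx3cr1: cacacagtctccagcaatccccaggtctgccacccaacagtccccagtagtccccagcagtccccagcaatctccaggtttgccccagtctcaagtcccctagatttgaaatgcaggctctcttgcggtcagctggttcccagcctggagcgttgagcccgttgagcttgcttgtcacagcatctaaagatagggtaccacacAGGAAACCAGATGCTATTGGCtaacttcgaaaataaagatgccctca
Siglech: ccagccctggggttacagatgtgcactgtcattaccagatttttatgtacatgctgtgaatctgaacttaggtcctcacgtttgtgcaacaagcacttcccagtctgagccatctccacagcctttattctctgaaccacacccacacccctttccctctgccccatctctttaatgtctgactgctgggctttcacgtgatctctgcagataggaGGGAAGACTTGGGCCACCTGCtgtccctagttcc
Crybb1: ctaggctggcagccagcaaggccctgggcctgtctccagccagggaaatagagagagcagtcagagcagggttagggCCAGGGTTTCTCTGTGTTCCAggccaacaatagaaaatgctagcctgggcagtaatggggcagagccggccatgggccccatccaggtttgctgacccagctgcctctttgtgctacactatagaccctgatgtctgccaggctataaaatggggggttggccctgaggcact
The promoter table held 8 starts for 7 of the genes. Both strands were searched for an ETS motif (GAGGAAGT), the ETS-IRF composite motif, the IRF motif, the AP-1 motif (TGANTCA) and the MEF2 motif. In these windows the MEF2 motif occurred once, 67 bases before the Cx3cr1 start, and TGANTCA occurred 141 and 59 bases before the second start of Adgrg1. The other 6 windows held no match. Among 32851 promoters of the table the motifs were present in 2.44%, 2.3%, 2.98%, 6.75% and 3.2%, in the order given.

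A peak's strength was read as its rank by −log10 p within its own library, so rank 1 is the strongest peak. A site was called strong in a library if any of its 30000 best peaks had a summit no more than 200 bp away. The lists were of unequal strength. The −log10 p at rank 30000 was 39.07 and 54.31 in WT and 73.4 to 80.65 in IRF8KO at P9. At P14 it was 61.78 and 68.19 in WT and 22.83 and 26.55 in IRF8KO at P14. It was 18.63 to 24.3 in the WT and X04 negative libraries at 10 months and 6.04 and 6.29 in the X04 positive ones. Irf8 itself had 11 to 12 strong sites in juvenile WT, 9 to 11 in IRF8KO, 9 to 10 in WT and X04 negative libraries at 10 months, and 7 and 3 in the X04 positive libraries. Which part of Irf8 was deleted is not stated in the labels, so these peaks do not check the genotype.

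The 50 sites were spread unevenly over the genes. Siglech had 8, Cx3cr1 and Adgrg1 7 each, Olfml3 6, Crybb1 and Selplg 5 each, and Slc2a5, Tmem119 and Sparc 4 each, where the median of 15707 genes with a region was 2. Gene bodies held 21 of the 50, and 53.9% of all regions lay inside a gene body. Of the sites, 10 were strong in every one of the 15 libraries, as were 14.8% of all regions. In the 13 libraries other than X04 positive, 17 sites were strong throughout, as were 22.7% of all regions. The 10 constant sites included those at the starts of Cx3cr1, Siglech and Crybb1, and others at Cx3cr1, Crybb1, Slc2a5 and Sparc. They also included the site 5.3 kb past Siglech and a pair beside Tmem119.

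The strongest site of the set lay past the end of Siglech. It was centred 5.3 kb beyond the gene body and 16.6 kb after the start (chr7:55784551-55784951). Its ranks were 94 and 89 in WT and 39, 159 and 34 in IRF8KO at P9, and 219 and 50 in WT and 248 and 105 in IRF8KO at P14. At 10 months they were 109 and 306 in WT, 103 and 105 in X04 negative and 4102 and 1874 in X04 positive libraries. The juvenile genotypes overlapped, and both X04 positive libraries stood below all 13 others. The next best sites were at Sparc, 13.1 kb before the start, with ranks of 432 to 7246 in the 13 libraries, and at Slc2a5, 1.9 kb before the start, with ranks of 1215 to 5404. The site inside Crybb1, 9.9 kb after the start, held ranks of 1891 to 5516 in the 13 libraries. Across the 13 libraries the best ranked peak stood no lower than 12307 for Tmem119, 5859 for Cx3cr1, 13748 for Adgrg1, 19454 for Olfml3 and 29186 for Selplg.

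**Figure D1:**
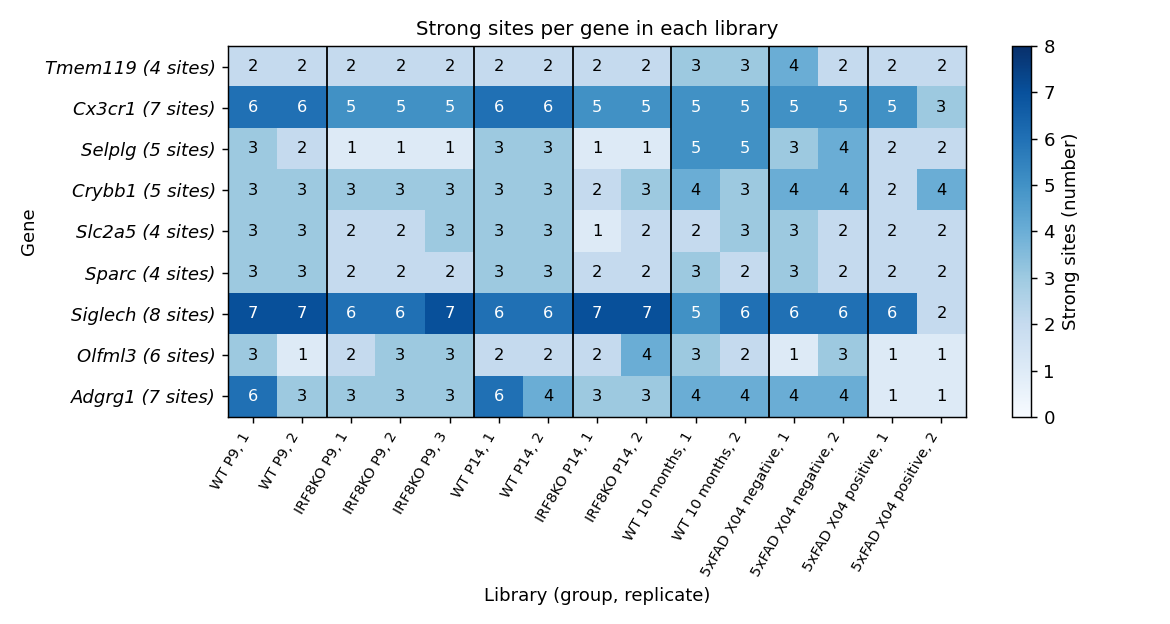
Number of strong sites (cell value and shade) for each gene (rows) in each of the 15 libraries (columns, by group and replicate). Tmem119 held 2 in every juvenile library, Selplg fell from 2 or 3 in WT to 1 in every juvenile IRF8KO library, and the second X04 positive library had 2 at Siglech.

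IRF8KO microglia kept peaks at all 9 genes. No site was strong in every library of one juvenile group and without a peak in every library of the other genotype, at either age. A peak counted as missing when none of the 126070 best, the length of the shortest list, lay within 400 bp. Across all regions 1.68% were higher and 1.82% lower in IRF8KO by this rule at P9, and 1.91% and 2.26% at P14. Strong sites summed over the 9 genes numbered 36 and 30 in WT and 26 to 29 in IRF8KO at P9, and 34 and 32 in WT and 25 and 29 in IRF8KO at P14. Every IRF8KO library held fewer than every WT library of its age. In such bulk samples, fewer cells with an open site cannot be told apart from a weaker opening in each cell. When peaks were ranked by the authors' fold enrichment, the mean sum was 21 in WT and 17.33 in IRF8KO at P9, but 18 in WT and 23 in IRF8KO at P14, so the direction at P14 turned.

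Cx3cr1, Selplg and Sparc had fewer strong sites in IRF8KO over both ages. Cx3cr1 had 6 in each of the 4 WT libraries and 5 in each of the 5 IRF8KO libraries. These counts did not rest on the same sites throughout. The site 13.3 kb after the Cx3cr1 start was strong in 2 IRF8KO libraries at P9 and in 0 at P14. No Cx3cr1 site was strong in all WT and in no IRF8KO libraries. Selplg had 3 and 2 in WT at P9, 3 in both at P14, and 1 in all 5 IRF8KO libraries. Sparc had 3 in all 4 WT and 2 in all 5 IRF8KO libraries. The exact permutation test, two-sided with labels permuted within age, gave p = 0.017 for each, the smallest that 60 arrangements allow, and an adjusted p of 0.027. Of the 9 genes, 5 could reach that p, 3 had fewer strong sites and 0 had more. Of all 2949 genes that could reach it, 30.3% had fewer and 31.4% more. At Selplg and Sparc, every site behind the lower count was strong in WT alone among juvenile libraries. The p of these genes therefore restates that pattern and is no independent support for it. Among the genes without a call, Slc2a5 had 3 in each WT library and 1 to 3 in IRF8KO, and Adgrg1 had 3 to 6 and 3. Crybb1 had 3 and 2 to 3, Siglech 6 to 7 in both, Olfml3 1 to 3 and 2 to 4, and Tmem119 2 in all 9. Leaving out any 1 of the P9 libraries or either WT library at P14 ended the 3 calls, as did 20000 in place of 30000 best peaks. Ranking by fold enrichment left 1, and Cx3cr1 then had more strong sites in IRF8KO, by a mean of 1.5.

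Single sites that were strong in every WT library and in no IRF8KO library lay at 5 genes. They were the site at the Sparc start, 1 inside Slc2a5, 1 inside Crybb1, 1 inside Adgrg1 and 1 beside Selplg. Of the 6 sites whose totals could reach the smallest p, these 5 were lower in IRF8KO and 0 were higher (exact permutation test, p = 0.017 and adjusted p = 0.021). Any region with this pattern gets that p, so the p restates the pattern and is no independent support for it. The remaining one lay 44.7 kb from Olfml3 (adjusted p = 0.252, exact permutation test). Of all 6326 such regions 39.1% were lower and 39.4% higher, so a call was common among testable regions. These calls could not be made without any 1 of the 5 libraries at P9. The smallest p was then 0.042 (smallest adjusted p 0.051 to 0.052) without a WT library and 0.056 without an IRF8KO one. All 5 were kept without any 1 library at P14. With 20000 best peaks 2 remained past the test, with 50000 3, and by fold enrichment 2. With 50000 best peaks 2 sites were higher.

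Ranks were then compared on a log2 scale. The rank score is −log2 of the rank, with ranks beyond 126070 and missing peaks set to 126070, so a difference of −1 means that the rank number doubled. At P9, limma with Benjamini-Hochberg adjustment over 42894 regions called 10 of 42 tested sites lower and 3 higher in IRF8KO. That is 23.8% and 7.14% of the sites, against 19.6% and 21.2% of all regions. The median difference was −0.42 over the sites and 0.03 over all regions. At P14, 14 were lower and 4 higher, which is 33.3% and 9.52%, against 21.0% and 21.0% of all regions. The median there was −0.46, and −0.02 over all regions. At both ages 7 sites were lower and 3 higher, against 14.8% and 15.8% of all regions, and 21 sites were called at neither age. The sign matched between ages at 30 of 42 sites and at 75.4% of all regions. The 8 sites outside the 42 were strong in no juvenile library. A site entered the fit if it was strong in at least 1 of the 9 libraries. Of the called sites, 7 of 10 lower at P9 and 9 of 14 lower at P14 were strong in no IRF8KO library, and 2 of 3 higher at P9 and 2 of 4 higher at P14 were strong in no WT library. These entered only through the genotype where they ranked better, so their calls and the counts that hold them are no independent support.

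The split of the calls depended on how peaks were ranked. By the authors' fold enrichment 29 sites were testable. At P9 2 of them were higher and 2 lower, against 19% and 17.8% of all regions so ranked. At P14 11 were higher and 2 lower, against 20.7% and 20.1%. A single fit over all 15 libraries called 6 sites lower at P9 and 8 at P14 (9.34% and 9.03% of all regions). In it the site 4.6 kb outside Selplg and the site 1.2 kb after the Slc2a5 start were lost at both ages. Leaving out WT P9 replicate 2 left 6 lower at P9 (15.1% of all regions).

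**Figure D2:**
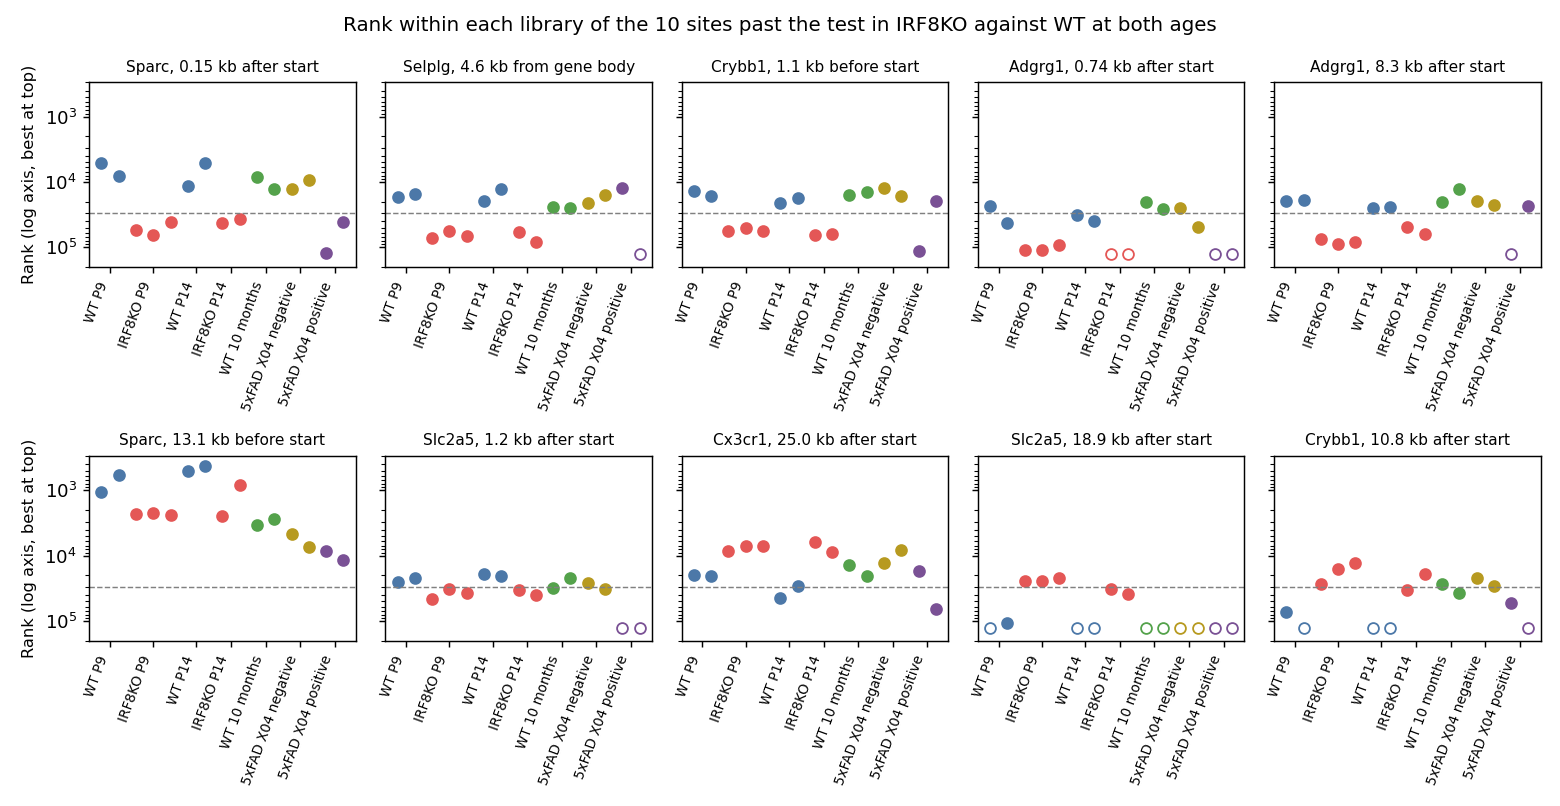
Rank of the peak (log axis, best at top) in each library for the 10 sites past limma's threshold at both juvenile ages. Points are libraries, open points are missing peaks or ranks beyond 126070 drawn at that rank, and the dashed line is rank 30000. In 7 panels the IRF8KO points lie below the WT points of their age and in 3 above them.

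The Sparc start showed the largest difference among the 42 sites. This site was centred 146 bp after the start, inside the gene (chr11:55419734-55420134). Its ranks were 5171 and 7967 in WT and 54337, 64564 and 41164 in IRF8KO at P9. At P14 they were 11522 and 5149 in WT and 42812 and 37401 in IRF8KO. The groups were well apart at both ages, and the peak was present in every library. The difference was −3.03 ± 0.34 (SE) at P9 and −2.38 ± 0.37 at P14. Limma called the site at both ages, but no p is given. Among juvenile libraries it was strong in WT alone and entered the fit through them. The authors' fold enrichment at the summit was 15.55 and 14.91 in WT and 5.76 to 9.17 in IRF8KO at P9, and 13.95 and 17.09 against 6.91 and 7.03 at P14. Both calls held under all 14 alternatives run, ranking by fold enrichment included.

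The other leading site of Sparc lay 13.1 kb before the start (chr11:55432992-55433392). It ranked 1073 and 586 in WT and 2316, 2240 and 2393 in IRF8KO at P9, and 503 and 432 against 2498 and 825 at P14. No library of either genotype overlapped with the other at its age. The differences were −1.55 ± 0.39 and −1.62 ± 0.43 (limma adjusted p = 0.0058 and 0.0077). By fold enrichment the P9 call was lost and the P14 difference turned to 1.63. The P9 call was also lost without WT P9 replicate 2, and the P14 call without WT P14 replicate 2 or IRF8KO P14 replicate 1. At 10 months the site ranked 3364 and 2777 in WT and 4645 and 7246 in X04 negative libraries.

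Adgrg1 held a pair of sites that were lower at both ages. The first, 8.3 kb after the second start (chr8:94992487-94992887), ranked 19380 and 18770 in WT and 73696, 89595 and 83626 in IRF8KO at P9. At P14 it ranked 25350 and 23951 against 48512 and 61812. It was thus strong in all WT and in no IRF8KO libraries. The differences were −2.1 ± 0.23 and −1.15 ± 0.25, and the P14 call was lost in the single fit of 15 libraries. The second lay 744 bp after that start (chr8:94984943-94985343) and ranked 23451 and 42003 in WT against 109424, 108331 and 90741 in IRF8KO at P9. At P14 it ranked 31968 and 40042 in WT and had no peak in either IRF8KO library. The differences were −1.71 ± 0.27 and −1.82 ± 0.3, and the P14 call was lost with ranks limited to 60000. No p is given for this pair, because among juvenile libraries both sites were strong in WT alone and entered the fit through them. The best site of the gene, 420 bp before the second start, ranked 3533 and 3386 in WT and 11898 and 8291 in IRF8KO at P14, a difference of −1.52 ± 0.31 (limma adjusted p = 0.0012), a call lost by fold enrichment. At P9 it ranked 6902 and 7339 against 10851, 13748 and 7693 and did not pass (adjusted p = 0.13). A further site 12.8 kb after the start passed at P14 alone (−1.43 ± 0.39), but not without either WT P14 library or IRF8KO P14 replicate 1. That site too was strong in WT alone among juvenile libraries, so no p is given.

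Selplg was lower 4.6 kb outside its body at both ages (chr5:113836951-113837351). The ranks were 16734 and 15474 in WT and 70741, 56361 and 68139 in IRF8KO at P9, and 19528 and 12683 against 58847 and 82610 at P14. WT and IRF8KO ranks lay far apart at each age. The differences were −2.01 ± 0.27 and −2.15 ± 0.29, and both calls were lost in the single fit of 15 libraries. The site 2.6 kb outside the body was lower at P9 (−1.31 ± 0.26), and the one 1.8 kb outside the other end was lower at P14 (−1.58 ± 0.25). No p is given for these Selplg sites. Among juvenile libraries each was strong in WT alone and entered the fit through them. The better ranked of the 2 sites inside the body ranked 10683 to 20453 in juvenile WT and 18280 to 29186 in IRF8KO libraries. It was the gene's best in all 5 IRF8KO libraries and in 1 WT library, and it passed no test. In the other 3 WT libraries the site 4.6 kb outside the body, described above, ranked best.

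Crybb1 had sites that moved in opposite directions. A site 1.1 kb before the start of the promoter table (chr5:112254533-112254933) was centred inside the gene body, which begins at 112254563. It ranked 13972 and 16431 in WT and 56959, 49846 and 56004 in IRF8KO at P9. At P14 it ranked 20815 and 17576 against 63705 and 61519. Its differences were −1.84 ± 0.23 and −1.71 ± 0.25, and the P14 call was lost in the single fit of 15 libraries. No p is given for it, since among juvenile libraries it was strong in WT alone and entered the fit through them. The site 10.8 kb after the start (chr5:112266372-112266772) was higher in IRF8KO. In WT it had 1 peak in 4 libraries, at rank 72958, and in IRF8KO it ranked 26837, 15953 and 13123 at P9 and 33810 and 19320 at P14. The differences were 2.43 ± 0.35 and 2.3 ± 0.38. No p is given, because among juvenile libraries the site was strong in IRF8KO alone and entered the fit through them. It was centred 868 bp from the gene's best site, which was strong in all 15 libraries and ranked 1891 and 2293 in WT against 4099 and 4595 in IRF8KO at P14 (−1.06 ± 0.35, limma adjusted p = 0.025). By fold enrichment that last difference was 0.16, and the call was lost without either WT P14 library or IRF8KO P14 replicate 2, and in the single fit. The start itself, with its summit 163 bp before the start, was lower at P9 (−0.96 ± 0.35, limma adjusted p = 0.039), a call lost under 7 of 14 alternatives, among them leaving out WT P9 replicate 2, IRF8KO P9 replicate 1 or 2, or either WT library of P14.

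Slc2a5 likewise held a falling and a rising site. The site 1.2 kb after the start (chr4:150120330-150120730) ranked 25283 and 21767 in WT and 45375, 32760 and 37746 in IRF8KO at P9, and 18988 and 20689 against 33349 and 39612 at P14. The differences were small, −0.71 ± 0.24 and −0.87 ± 0.26, and limma called the site at both ages. No p is given, because among juvenile libraries it was strong in WT alone and entered the fit through them. The P9 call was lost without either WT P9 library or without IRF8KO P9 replicate 1 or 3, and the P14 call without WT P14 replicate 1 or IRF8KO P14 replicate 2. Both calls were also lost in the single fit of 15 libraries. The site 18.9 kb after the start (chr4:150138049-150138449) had 1 peak in the 4 WT libraries, at rank 106190. In IRF8KO it ranked 24408, 24320 and 22287 at P9 and 31987 and 38666 at P14. The differences were 2.29 ± 0.23 and 1.84 ± 0.25. No p is given, because the site was strong in the 3 IRF8KO libraries of P9 alone and entered the fit through them. Its neighbour at 1.4 kb was lower at P9 (−0.78 ± 0.24, limma adjusted p = 0.02), with ranks of 17001 and 22253 in WT and 28723 to 36492 in IRF8KO, and was not called without WT P9 replicate 2 or IRF8KO P9 replicate 1 or 2, or in the single fit. The best site, 1.9 kb before the start, was lower at P14 (−1.18 ± 0.34, limma adjusted p = 0.013), but its difference by fold enrichment was 0.72, and the call was lost without replicate 2 of either P14 group and in the single fit.

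Cx3cr1 changed away from its start. The site centred 37 bp before the start (chr9:120068133-120068533) ranked 3955 and 3278 in WT and 4278, 6355 and 3947 in IRF8KO at P9, and 4671 and 2258 against 4981 and 4100 at P14, with no call. The site 5.4 kb beyond the other end of the gene (chr9:120043120-120043520) was higher in IRF8KO. It ranked 19587 and 20133 in WT and 8388, 7187 and 7051 in IRF8KO at P9, and 44667 and 28704 against 6240 and 8889 at P14. All 5 IRF8KO libraries ranked it better than all 4 WT libraries. The differences were 1.4 ± 0.26 and 2.27 ± 0.29 (limma adjusted p = 0.0007 and 3.2e-05), and the P14 call held under all 14 alternatives, while the P9 call was lost by fold enrichment and in the single fit of 15 libraries. Inside the gene, 13.3 kb after the start, ranks at P14 were 13750 and 10451 in WT and 41495 and 38956 in IRF8KO (−1.75 ± 0.36, limma adjusted p = 0.0014). At P9 that site ranked 11366 and 14658 against 15825 to 35280 and did not pass. A site 1.9 kb past the gene also passed at P14 (−1.15 ± 0.29). No p is given for it, because among juvenile libraries it was strong in WT alone and entered the fit through them.

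Tmem119 and Siglech had no call between genotypes at either age, with 2 and 7 sites tested. For Tmem119 the site 88 bp outside the gene body ranked 8605 and 6129 in WT and 12307, 10849 and 9131 in IRF8KO at P9, and 8907 and 8151 against 7480 and 9239 at P14. The Siglech start, with its summit 24 bp before the start, ranked 3508 and 3018 in WT and 4993, 5122 and 5691 in IRF8KO at P9, and 2845 and 2537 against 2560 and 5282 at P14. WT ranked better than IRF8KO at P9 for each, with limma adjusted p of 0.096 and 0.074. Olfml3 had 1 call among 4 sites, 18.9 kb from the gene, higher at P14 (0.91 ± 0.34, limma adjusted p = 0.047), and it was lost under 11 of 14 alternatives, among them leaving out any 1 library other than WT P14 replicate 2 or IRF8KO P14 replicate 1. Its start, 38 bp from a summit, ranked 26664 to 62116 over the 9 juvenile libraries. The genotypes overlapped there at both ages.

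**Figure D3:**
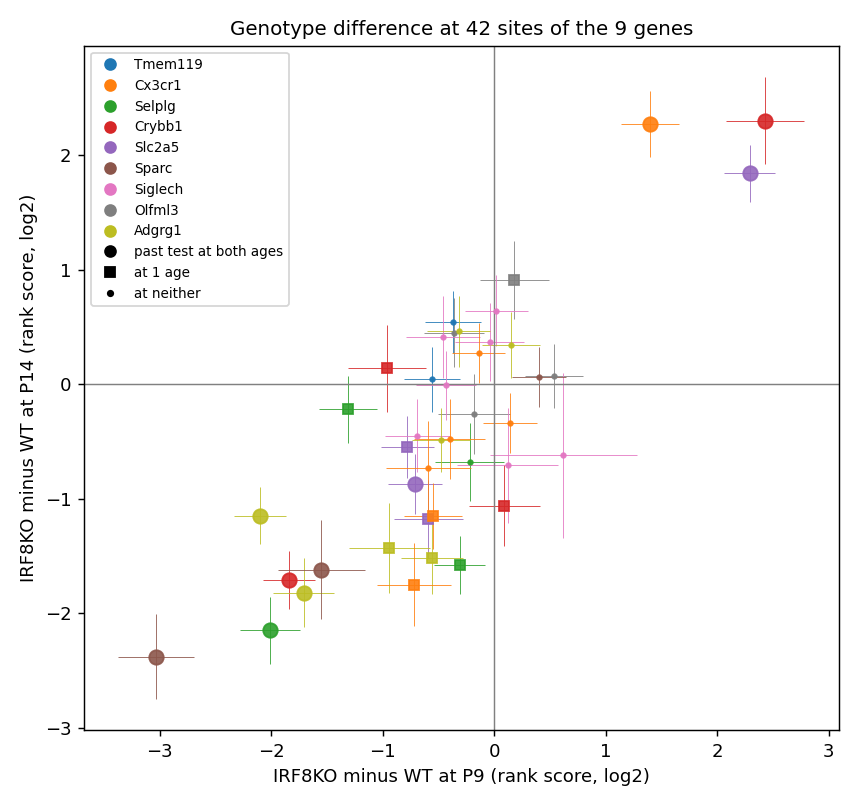
Difference in rank score (IRF8KO minus WT, log2) at P9 (horizontal) and at P14 (vertical) for the 42 tested sites, coloured by gene, with bars of 1 SE. Larger circles passed limma's threshold at both ages, squares at 1 age and small points at neither. The Sparc start lies lowest, at −3.03 and −2.38, and single sites of Cx3cr1, Crybb1 and Slc2a5 lie in the upper right.

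Distance from the start did not separate called from other sites in a single way. The sites lower at both ages lay between 146 bp and 13.1 kb from a start of the promoter table, where it gave one. Those higher at both ages lay 10.8 to 25.0 kb after such a start. The lower Crybb1 site, though before that start, was centred inside the gene body.

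**Figure D4:**
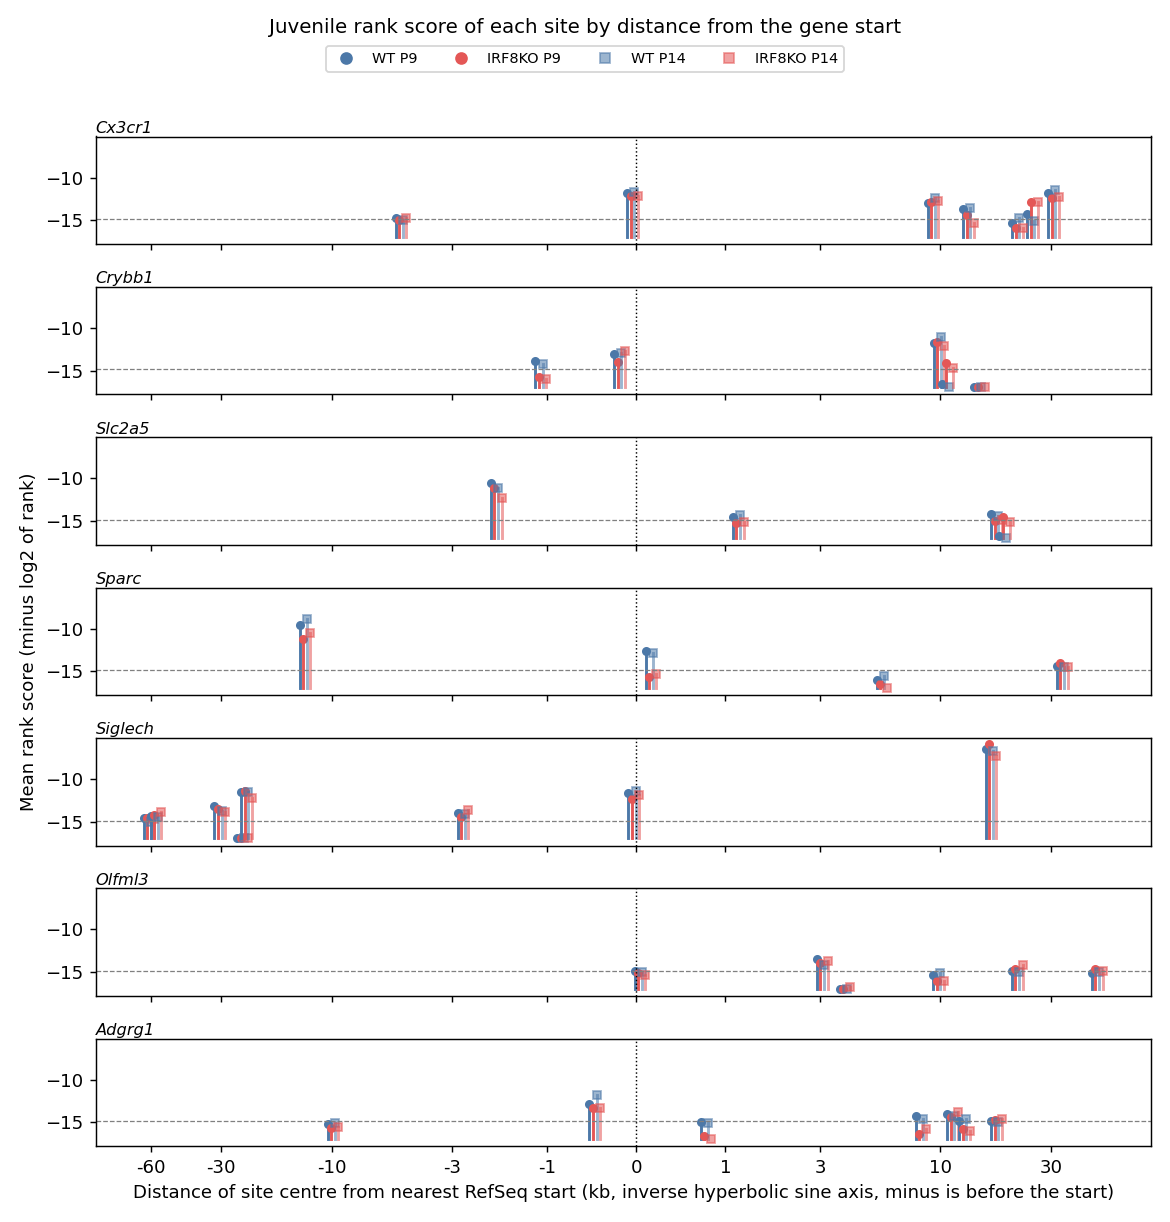
Mean rank score of each site (vertical, higher is a better rank) by distance of its centre from the nearest RefSeq start (horizontal, kb, minus is before the start) in the juvenile groups, for the 7 genes with a start in the table. Stems begin at the score of rank 126070, the dashed line is rank 30000, and the neighbouring stems of a site are WT and IRF8KO at P9 and then at P14. Stems at the Cx3cr1 and Siglech starts are of like height in the 4 groups, and those at the Sparc start are shorter in IRF8KO.

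Some other macrophage markers moved with genotype. Summed over 7 genes of border-associated macrophages (Mrc1, Cd163, Lyve1, F13a1, Pf4, Cbr2 and Ms4a7), strong sites numbered 9 to 10 in juvenile WT, 17 to 18 in IRF8KO at P9 and 18 to 20 at P14. Pf4 was at 0 in all 4 WT libraries and at 1 to 2 in IRF8KO. F13a1 held 1 in WT and 4 in IRF8KO, Ms4a7 1 and 3, and Cd163 2 and 3. Mrc1 held 2 to 3 in WT, 3 in IRF8KO at P9 and 4 to 5 in IRF8KO at P14. Lyve1 stayed at 1 and Cbr2 at 2 in all 9 juvenile libraries. Of the testable sites of this list, 9 of 10 were higher and 1 lower (exact permutation test), against 39.4% and 39.1% of all testable regions. Here too the p restates a site's presence in 1 genotype alone and is no independent support. By limma 11 of 23 sites were higher and 4 lower at P9, against 21.2% and 19.6% of all regions. At P14 11 were higher and 3 lower, against 21.0% and 21.0%. Sites strong in 1 genotype alone entered that fit through it. The 5 general myeloid genes held 22 to 24 in juvenile WT and 21 to 24 in IRF8KO. The list of monocyte and neutrophil genes held 4 to 5 and 4 to 6, with Ly6c2 and S100a8 at 0 throughout. Strong sites of 5 oligodendrocyte genes numbered 10 to 12 in juvenile WT and 5 to 7 in IRF8KO, those of 5 astrocyte genes 12 to 14 and 9 to 11, those of 5 endothelial genes 8 to 10 and 7 to 8, and those of 6 neuronal genes 4 to 5 and 2 to 4. The part of these cell types in the results above was not tested.

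A list of 26 further microglial genes gave 178 sites, with none at P2ry13. By the exact permutation test within age 5 were higher and 10 lower in IRF8KO, of 18 that could reach the smallest p, against 39.4% and 39.1% of all such regions. Lower sites numbered 4 at the transcription factor gene Sall1, 3 at the chemerin receptor gene Cmklr1, and 1 each at Slco2b1, Fscn1 and Bin1. Higher sites lay at P2ry12, Sall3, Mertk, Entpd1 and Bin1, 1 each. By limma 42 of 148 were lower and 20 higher at P9, against 19.6% and 21.2% of all regions, with a median of −0.14. At P14 50 were lower and 16 higher, against 21.0% and 21.0%, with a median of −0.39.

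Age changed few of the 42 sites. From P9 to P14, 0 were called in WT (5 at an unadjusted p under 0.05 by limma; 0.0326% of all regions higher and 0.0513% lower). In IRF8KO 1 was higher (1.51% of all regions higher, 1.95% lower), the site 6.6 kb from Tmem119, by 1.03 ± 0.25 (limma adjusted p = 0.038). Its ranks were 13093, 13836 and 16568 at P9 and 5816 and 8531 at P14, with no overlap. The call was lost under 11 of 14 alternatives, among them leaving out any 1 library other than IRF8KO P14 replicate 2. The difference between the ages in the genotype effect was called at 0 sites (8 at an unadjusted p under 0.05 by limma; 0.168% of all regions higher and 0.0909% lower; lowest adjusted p 0.1342).

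At 10 months no site passed the test between X04 negative 5xFAD and WT microglia. Of 43 sites tested, 0 were called by limma, 0 had an unadjusted p under 0.05, and the median difference was −0.01. Of all 54840 regions 0% were called and 926 had an unadjusted p under 0.05, so the fit of 6 libraries called nothing in this comparison. The rule of strong against missing also called 0 of the 33 sites to which it could apply. Of 26981 such regions 0.137% were higher and 0.0593% lower. Strong sites over the 9 genes numbered 34 and 33 in WT and 33 and 32 in X04 negative libraries. Selplg had 5 in both WT libraries and 3 and 4 in X04 negative ones, and Adgrg1 had 4 in all 4. The start of Cx3cr1 ranked 3487 and 3814 in WT and 2918 and 4479 in X04 negative libraries. The Sparc start ranked 8416 and 12867 against 12953 and 9447. Both starts overlapped between the groups.

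Levels at 10 months are set beside the juvenile ones without a test, since dye and age differ together. The Slc2a5 site 17.5 kb after the start ranked 4255 to 10138 in the 4 WT and X04 negative libraries and 17001 to 22253 in juvenile WT. The Selplg site 2.6 kb outside the body ranked 9660 to 18866 and 26500 to 39788. At Siglech, 23.4 kb before the start, WT ranked 14028 and 16090 at 10 months, X04 negative 5352 and 6802, and juvenile WT 2237 to 3774. The Crybb1 site that was higher in juvenile IRF8KO ranked 27457 and 37764 in WT and 21834 and 29090 in X04 negative libraries at 10 months. The rising site of Slc2a5 had no peak in any of the 6 libraries of that age.

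X04 positive libraries held the fewest strong sites at the 9 genes, 23 and 19, against 32 to 34 in the other 10-month libraries. Adgrg1 had 1 in each, against 4. Siglech had 6 in one and 2 in the other, so this pair differed widely. By limma 10 of 43 sites were lower and 1 higher than in X04 negative cells, against 14.7% and 3.15% of all regions. Against WT 11 were lower and 1 higher, against 12.7% and 2.36%. The median differences were −1.37 and −1.33, and 0.02 and −0.01 over all regions. Both comparisons share the X04 positive libraries. Of the lower sites, 6 of 10 and 8 of 11 were strong in no X04 positive library, and the higher site was strong in these alone. Such sites entered the fit only through the groups where they ranked better.

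The site past Siglech differed most from X04 negative cells among these sites, by −4.74 ± 0.68 (limma adjusted p = 0.029). The Cx3cr1 start ranked 15850 and 18171 in X04 positive libraries, a difference of −2.23 ± 0.45 (limma adjusted p = 0.032). The Sparc start ranked 119887 and 40768 (−2.66 ± 0.65). The best site of Slc2a5 ranked 10083 and 17822 against 3064 and 2373 (−2.31 ± 0.49, limma adjusted p = 0.034). That of Olfml3 ranked 46863 in one library and was missing in the other (−2.87 ± 0.65). Limma called the Sparc start and this Olfml3 site, but no p is given for them. Both were strong in no X04 positive library and entered the fit through the other groups. A different Olfml3 site, 1.3 kb from the gene (chr3:103733937-103734337), was centred 808 bp from the gene's best site. It ranked 18334 and 18989 in X04 positive libraries and had no peak in X04 negative ones, a difference of 2.76 ± 0.45. It was strong in those 2 libraries alone and was in the map only through them, so no p is given. Sites of Crybb1 and Tmem119 gave no call. The best Crybb1 site ranked 4445 and 6570, against 3809 and 5516 in X04 negative libraries.

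**Figure D5:**
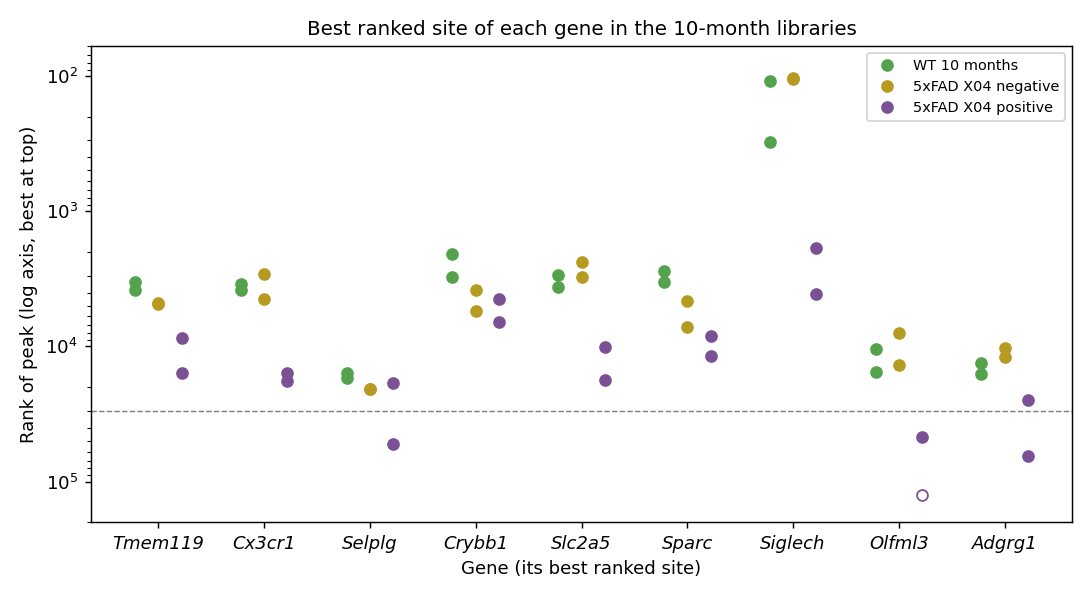
Rank (log axis, best at top) of each gene's best ranked site in the 6 libraries of 10 months, 1 point per library, with the dashed line at rank 30000. The open point is a missing peak drawn at rank 126070. Both X04 positive libraries lie below all others at every gene but Selplg and Crybb1, and at Siglech they stand at 4102 and 1874. At Crybb1 they lie next to the others.

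These X04 positive values rest on the weakest lists. All limma calls of both comparisons were lost on leaving out any 1 of the WT or X04 negative libraries. Without X04 positive replicate 1, 18 sites were lower than in X04 negative cells and 20 lower than in WT (29.8% and 28.5% of all regions). Without replicate 2 the former was 16 (26.5%). The remaining X04 positive library is there assumed to vary like the other 2 groups, which alone give the spread. By fold enrichment 3 and 2 sites were lower (9.53% and 6.74% of all regions). The rule of strong against missing could apply to 29 sites against X04 negative cells and to 32 against WT. By it 1 site was higher than in X04 negative cells, the Olfml3 site just named (0.805% of 26592 such regions). None was lower (8.64%). Against WT 0 were higher (0.696% of 26285 such regions) and 3 lower (8.51%). Those 3 lay at the Olfml3 start, 1.8 kb outside Selplg and at Adgrg1, 744 bp after the second start. Strong sites of 6 neuronal genes summed to 11 to 14 in X04 positive libraries and to 5 to 6 in the other 10-month libraries. Syt1 was at 0 in those and at 3 to 4 in X04 positive libraries, and Gad1 was at 0 throughout. The 5 myeloid genes summed to 10 in each X04 positive library and to 20 to 21 elsewhere at that age. The oligodendrocyte, astrocyte and endothelial lists summed to 8 to 9, 15 and 10 in X04 positive libraries, and to 8 to 13, 16 to 22 and 8 to 14 in the other 4. The part of cell mixture and of list strength in the results was not tested.

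Across the 7 group means, the mean rank score of the 50 sites was −14.07 in WT at P9 and −14.47 in IRF8KO, −14.05 and −14.47 at P14, and −14.02, −14.1 and −15.27 in WT, X04 negative and X04 positive cells at 10 months. Among 7551 other genes with at least 3 regions, Snx30, Rap1gds1 and Icosl had the most similar pattern, with Pearson r of 0.997, 0.996 and 0.996 over 7 groups. All share the low X04 positive mean, and no p is given.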

How the data were processed

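ATAC-seq peak lists of 15 libraries in 7 groups were analysed, and groups were taken from the labels. The submitters' processing notes name MACS2 2.2.7.1, Bowtie2, bcl2fastq, deepTools and the mm10 build, without order or settings. Each list holds one library, so the authors called peaks per sample. Its fold enrichment is a ratio deposited by the authors, and its −log10 p and −log10 q are the peak caller's values, also deposited by the authors. The summit's distance from the peak's start was also deposited by the authors, in base pairs. Read depth was not analysed here, so the strength of a list is described by its −log10 p at rank 30000.

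Peaks were ranked within a list by −log10 p, with ties broken by fold. Regions were the summits of the 30000 best peaks of all libraries on chromosomes 1 to 19 and X, taken by rank and kept only if more than 400 bp from those already taken, and are printed as 401 bp in mm10. Of the regions, 91.2% had a gene within 100 kb (RefSeq, GRCm38.p6). Exons and introns were not told apart. Presence in IRF8KO and WT were compared by an exact permutation test (two-sided, labels permuted within age), with Benjamini-Hochberg adjustment over those regions or genes that could reach the smallest p. Rank scores were compared with limma 3.58.1 (R 4.3.3) in 1 fit of the 9 juvenile libraries over 42894 regions and 1 of the 6 libraries of 10 months over 54840 regions, each region strong in at least 1 library of its fit, with a threshold of 0.05. Python 3.11.15, numpy 2.4.6, pandas 2.3.3, scipy 1.17.1 and matplotlib 3.10.9 were used. On simulated ranks with 200 regions moved down by 2 or by 4 on the log2 scale, limma recovered 78.0% and 98.5% at P9 and 72.5% and 98.0% at P14, with 0.092% and 0.067% false calls. The exact test recovered 0.0% of so few, and 74.6% when 5000 regions were moved by 4, with 0.028% false calls. Only regions with good mean ranks at both ages were moved. For limma, fewer regions were moved than it called in the data. These rates may therefore not hold for sites of worse rank.

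The 9 genes, the lists of cell type markers and of further microglial genes, the motifs and the rule for named genes were chosen with earlier results of these data known. All 9 genes were named. Their sites were named when best ranked in the gene or past a test or rule. Further microglial genes were named when a site passed the exact test, and the 3 most similar genes by Pearson correlation of group means. Levels at gene starts and at a few other sites outside this rule were chosen after their values were seen. No libraries held identical lists. The value of 1 gene of the monocyte and neutrophil list is not reported here. Alternatives were 20000 and 50000 best peaks, ranking by fold enrichment, a summit within 100 bp, genes within 20 kb, ranks limited to 60000, the replicate number as a block, a fit over 15 libraries and leaving out each library.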

Additional observations from a re-analysis of the deposited data

Results flagged for a closer look

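At the site 6.6 kb from Tmem119 (chr5:113786938-113787338) the genotypes stood in opposite order at the 2 ages. All 3 IRF8KO libraries ranked worse than both WT libraries at P9, and both ranked better than both at P14. The difference of the differences was 0.91 ± 0.36 (SE; limma interaction, adjusted p = 0.28), so the reversal did not pass the test.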

How the results depend on the processing

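The mean sums of strong sites over the 9 genes followed the number of best peaks. For WT and IRF8KO at P9, WT and IRF8KO at P14, and WT, X04 negative and X04 positive at 10 months they were 23, 20, 22, 21, 25, 25 and 17.5 with 20000, and 48, 39, 47.5, 41, 54, 48.5 and 27 with 50000. By fold enrichment the sums of the first 6 groups were 21, 17.33, 18, 23, 25.5 and 26. With genes within 20 kb the sums of IRF8KO at P9, WT and IRF8KO at P14, and WT and X04 negative at 10 months were 22.67, 29.5, 22.5, 30.5 and 29. Exact calls of lower sites numbered 2 with 20000, 3 with 50000 and 2 by fold, higher ones 2 with 50000, and genes with fewer sites 0 with 20000 and 1 by fold. Leaving out 1 library gave 0 to 5 lower and 0 to 1 higher sites and 0 to 3 genes. The difference in strong sites turned for Cx3cr1 (0.083 with 20000, 1.5 by fold), Crybb1 (0.167 with 50000, 0.25 by fold), Slc2a5 (0.5) and Olfml3 (−1.667, both with 50000) and Siglech (−0.167 within 20 kb). By fold the limma difference at P14 turned at the best sites of Slc2a5 (0.72), Crybb1 (0.16) and Sparc (1.63). By fold limma called 2 sites lower at P9, 11 higher and 2 lower at P14, 4 higher from P9 to P14 in IRF8KO, 4 higher and 1 lower for the interaction, and 3 and 2 lower in X04 positive against X04 negative and WT. With ranks limited to 60000 the last was 7. One fit over 15 libraries gave 6 lower at P9, 8 at P14, 0 for age in IRF8KO, and 28 and 31 lower in X04 positive. With the replicate number as a block limma called 0 sites for age in IRF8KO and 0 in both directions in both X04 positive comparisons, 9 lower and 3 higher at P9 (without the Slc2a5 site 1.2 kb after the start), and 14 and 4 at P14. Same-numbered libraries of different groups deviated with correlations of −0.034 to 0.031, so the numbers are not read as pairs. Leaving out 1 library gave 6 to 12 lower at P9, 0 to 1 higher for age in IRF8KO, 0 to 18 lower and 0 to 2 higher against X04 negative, and 0 to 20 and 0 to 2 against WT. In the rule of strong against missing, 20000 gave 0 lower against WT in X04 positive, and 50000 gave 1 higher and 1 lower in IRF8KO at P14, 1 lower in X04 negative, and 10 and 14 lower in X04 positive against X04 negative and WT. By fold the last pair was 2 and 1. Leaving out 1 library gave 0 to 1 higher in IRF8KO at P9, 1 to 2 higher and 1 to 4 lower against X04 negative, and 0 to 1 and 4 to 6 against WT. The cause of these changes was not tested. Of the single-site limma values under alternatives 464 of 679 kept direction and side of the threshold, 212 lost the call and 3 turned. The weak X04 positive lists and groups of 2 libraries limit every value.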
